A study of Mus musculus with 21 samples.

Results

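Collagen IV and collagen VI, a pair of extracellular matrix proteins that lie in and beside basement membranes, were followed through their 9 chain genes in sorted cells of the developing mouse lung. The genes were taken by symbol, whatever their values: Col4a1, Col4a2, Col4a3, Col4a4, Col4a5 and Col4a6 for collagen IV, and Col6a1, Col6a2 and Col6a3 for collagen VI. All 9 were listed for both cell types, out of 25035 genes listed for either. The cells came from C57BL/6 mice with a Col1a2-GFP transgene, in which green fluorescent protein marks cells that use the regulatory sequences of the type I collagen gene Col1a2. Lungs were taken apart with collagenase, Dispase II and DNase I. Epithelial cells were sorted as Epcam-positive, GFP-negative and negative for CD31, CD45, CD146 and Ter119, although the labels at E18.5 do not name the GFP gate. Fibroblasts were sorted as GFP-positive, Epcam-negative and negative for the same 4 surface proteins. RNA was counted by 3'SAGE-seq, which reads 1 short tag from the 3' part of each transcript with a poly(A) tail. Both cell types had 2 libraries at each of embryonic day 18.5 (E18.5) and postnatal days 0.5, 2, 7 and 28 (P0.5, P2, P7 and P28), and fibroblasts had 1 more at P56, which made 21 libraries in all. All mice carried the transgene, and none is described as treated. Libraries are numbered in the labels, but no separate animals are named, so p-values reflect the spread among these libraries alone, and that spread may be technical.

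Collagen IV is the network-forming collagen of basement membranes, the sheets on which epithelia rest and which wrap capillaries, muscle and fat. Its chains join inside the cell into triple helices of set make-up. Col4a1 and Col4a2 form the helix found in nearly every basement membrane. Col4a3, Col4a4 and Col4a5 form a helix best known from the filtration barrier of the kidney and also present under alveolar epithelium, and human mutations in these genes cause Alport syndrome. Col4a5 also joins Col4a6, in basement membranes of skin, smooth muscle and bronchi among others. Collagen VI is built from Col6a1, Col6a2 and Col6a3 and forms beaded filaments where basement membranes meet the interstitial matrix. Mesenchymal cells are its usual source.

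The collagen IV genes lie in head-to-head pairs that point away from each other. On the GRCm38 (mm10) build with GENCODE M21 genes, Col4a1 occupies chr8:11198423-11312826 on the minus strand and Col4a2 chr8:11312805-11449287 on the plus strand, so the starts overlap by 22 bases. Col4a4 lies at chr1:82448423-82586849 on the minus strand and Col4a3 at chr1:82586921-82722059 on the plus strand, with starts 72 bases apart. Col4a6 lies at chrX:141165403-141474076 on the minus strand and Col4a5 at chrX:141475385-141689234 on the plus strand, 1309 bases apart. The collagen VI genes are arranged otherwise. Col6a2 (chr10:76595762-76623630) and Col6a1 (chr10:76708792-76726168) lie on the minus strand with 85162 bases between them, and Col6a3 (chr1:90765923-90843971) lies alone on the minus strand.

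The promoter windows of the paired collagen IV genes are shown because the members of each pair are compared throughout. They run from 250 bases before to 50 bases after the gene's start, 5' to 3' on the gene's own strand, and come from RefSeq on GRCm38.p6. RefSeq windows were matched for 8 of the 9 chains, all but Col4a3. Capitals mark CCAAT and GGGCGG on either strand, so that ATTGG and CCGCCC are marked too. The Col4a1 window (chr8:11312777-11313076, minus strand) holds the start of Col4a2 at base 272, and the Col4a4 window (chr1:82586800-82587099, minus strand) holds the start of Col4a3 at base 179. The Col4a2 window (chr8:11312555-11312854, plus strand) holds the start of Col4a1, also at base 272. The Col4a5 window is chrX:141475169-141475468 on the plus strand, and the Col4a6 window is chrX:141474027-141474326 on the minus strand.
Col4a1: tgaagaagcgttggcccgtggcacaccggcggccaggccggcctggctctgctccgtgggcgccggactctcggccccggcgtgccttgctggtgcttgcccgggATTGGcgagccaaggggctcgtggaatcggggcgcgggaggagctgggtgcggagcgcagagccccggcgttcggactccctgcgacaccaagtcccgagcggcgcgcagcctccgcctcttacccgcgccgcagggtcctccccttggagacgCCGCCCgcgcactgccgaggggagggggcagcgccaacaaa
Col4a2: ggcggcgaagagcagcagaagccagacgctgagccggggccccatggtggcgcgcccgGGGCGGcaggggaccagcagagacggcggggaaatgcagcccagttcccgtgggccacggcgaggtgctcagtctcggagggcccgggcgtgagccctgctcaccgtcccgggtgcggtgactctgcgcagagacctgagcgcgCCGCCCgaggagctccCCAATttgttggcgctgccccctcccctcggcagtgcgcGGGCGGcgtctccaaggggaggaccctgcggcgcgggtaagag
Col4a4: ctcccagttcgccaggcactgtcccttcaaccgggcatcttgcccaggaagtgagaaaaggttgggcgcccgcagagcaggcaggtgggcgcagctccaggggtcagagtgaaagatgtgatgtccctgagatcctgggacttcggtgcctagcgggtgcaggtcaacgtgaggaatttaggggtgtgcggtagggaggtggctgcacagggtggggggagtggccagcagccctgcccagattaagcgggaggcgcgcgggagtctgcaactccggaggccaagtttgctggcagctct
Col4a5: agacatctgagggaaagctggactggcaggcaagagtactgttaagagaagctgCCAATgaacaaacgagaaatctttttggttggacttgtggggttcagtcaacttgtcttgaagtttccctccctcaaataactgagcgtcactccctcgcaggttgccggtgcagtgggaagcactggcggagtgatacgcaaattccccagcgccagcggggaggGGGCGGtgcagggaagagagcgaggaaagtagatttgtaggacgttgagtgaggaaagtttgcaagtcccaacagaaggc
Col4a6: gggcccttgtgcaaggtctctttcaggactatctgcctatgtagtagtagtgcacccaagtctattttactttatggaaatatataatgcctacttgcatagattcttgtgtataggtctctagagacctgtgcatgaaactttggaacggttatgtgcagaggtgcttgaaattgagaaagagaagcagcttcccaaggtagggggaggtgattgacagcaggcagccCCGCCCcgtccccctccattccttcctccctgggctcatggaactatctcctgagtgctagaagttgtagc
The Col4a1 and Col4a2 windows are 74% and 73.7% G and C, against a median of 52.7% over all 32851 RefSeq windows of that length. CCAAT, the letters bound by NF-Y, was in the Col4a1, Col4a2 and Col4a5 windows and in 37.4% of all windows. GGGCGG, the letters of a GC box bound by Sp1, was found in each of the Col4a1, Col4a5 and Col4a6 windows, at 3 places in the Col4a2 window, and in 35.7% of all windows. The letters CCCTCCCC, searched on both strands, were in the Col4a1, Col4a2 and Col4a5 windows and in 10.8% of all windows. In Col4a5 they overlap the GGGCGG match. Because the Col4a1 and Col4a2 windows overlap, their CCCTCCCC match is the same site, read on opposite strands. The GGGCGG match of Col4a1 is likewise among those of Col4a2. These shared matches are therefore not independent and cannot be set against the shares of all windows as separate finds. None of these 5 windows held TATAAA, which was in 13.6% of all windows.

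The deposited values are tag counts divided by 1 factor per library. Undoing that factor gave 2282124 to 5602529 reads per library in epithelium and 2146071 to 5729829 in fibroblasts. A gene with no read could still be present at a level below 3 reads, or 0.403 to 1.37 on the scale of the values, depending on the library. This floor covers counting error only, because amplified reads are not independent molecules. The P56 fibroblast library stood apart: its values sum to 769260, against 896099 to 1155140 in the other 20 libraries, and its 10 most abundant genes took 11.5% of reads, against 14.0% to 20.8%. In bulk libraries, fewer cells of a type and less RNA per cell cannot be told apart. The sorted populations matched their labels in their defining markers, a match that the sort itself partly sets. Epcam, a sorted protein, is among the epithelial markers, and Col1a2, the gene behind the GFP, is among the fibroblast markers. The 6 epithelial markers summed to 9848 to 22095 in epithelium and 9.40 to 132 in fibroblasts, and the 7 fibroblast markers to 26.3 to 256 in epithelium and 4366 to 24230.3 in fibroblasts. Endothelial cells are a source of collagen IV in intact lung. The 12 endothelial markers summed to 62.6 and 34.1 in E18.5 epithelium and 4.48 to 17.0 in epithelium at later stages. In fibroblasts 11 of them were listed, all but Emcn, and summed to 17.5 to 35.9. In E18.5 epithelium most of the sum was Kdr, at 45.4 and 23.4. Pecam1, which encodes CD31, was at most 2.32 in epithelium and 2.01 in fibroblasts, and Cdh5 at most 0.456 in epithelium and 0.94 in fibroblasts, and both were at 0 in E18.5 epithelium. The part of the E18.5 excess in the high epithelial Col4a2 of that stage was not tested.

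The cell types differed in all 9 chains when the 5 shared stages were averaged. Col4a2, Col4a3, Col4a4, Col4a5 and Col4a6 were higher in epithelium, and Col4a1 and the collagen VI chains were lower in epithelium than in fibroblasts. Cell types were compared on joint CPM, recovered reads scaled together to 1000000 per library over the 20004 genes listed for both. The test was limma on log2(CPM + 1), with Benjamini-Hochberg adjustment over 13386 genes and a threshold of 0.05. At that threshold 62.4% of all genes tested were called, 32.5% higher and 29.9% lower in epithelium, so the count of 9 of 9 is read against a high background. By stage, 9 chains were called at E18.5 (background 38.2%), 7 at P0.5 (41.0%), 9 at P2 (41.0%), 7 at P7 (35.5%) and 8 at P28 (38.1%). The chains not called were Col4a2 and Col4a5 at P0.5, Col4a1 and Col4a6 at P7, and Col4a2 at P28. Some of these calls rested on single libraries. The Col4a1 call at E18.5 was lost without any 1 of its 4 libraries or with no filter (adjusted p up to 0.25), and the Col4a2 call at E18.5 without fibroblast E18.5 replicate 1 (0.0585). The Col4a2 call at P2 was lost without epithelial or fibroblast P2 replicate 1 (adjusted p up to 0.290), the Col6a1 call at P0.5 without epithelial P0.5 replicate 1 (0.0525), and the Col4a5 call at P7 without epithelial P7 replicate 1 (0.0823). The size of the differences sorted the chains into groups that followed the gene pairs in some cases and not in others.

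Col4a3 and Col4a4 were the chains with the widest epithelial excess. Col4a3 averaged 152 ± 32.1 joint CPM in epithelium and 3.10 ± 2.46 in fibroblasts (SD, n = 10 libraries of each cell type), with a log2 difference of 5.48 (SE 0.15, limma adjusted p = 2.63e-18). Col4a4 averaged 67.5 ± 19.7 joint CPM in epithelium and 1.24 ± 1.02 in fibroblasts, a log2 difference of 5.0 (SE 0.15, limma adjusted p = 1.67e-17). Every epithelial library lay above every fibroblast library for both genes. Col6a3 stood at the other end, at 2.04 ± 1.53 joint CPM in epithelium and 299.8 ± 144 in fibroblasts, a log2 difference of -6.65 (SE 0.15, limma adjusted p = 2.06e-19). Col6a2 followed with 90.4 ± 57.0 joint CPM in epithelium and 493 ± 113 in fibroblasts (-2.70, SE 0.08), and Col6a1 with 71.1 ± 50.7 in epithelium and 190.3 ± 43.2 in fibroblasts (-1.67, SE 0.08). All epithelial libraries were below all fibroblast libraries for Col6a2 and Col6a3. For Col6a1 the ranges overlapped, because the P0.5 epithelium reached a mean of 161 joint CPM, the fifth highest of the 10 groups.

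The most abundant pair, Col4a1 and Col4a2, split between the cell types. Col4a1 averaged 1108 ± 473 joint CPM in epithelium and 1748 ± 288 in fibroblasts, a log2 difference of -0.75 (SE 0.09, limma adjusted p = 4.37e-07). Col4a2 averaged 2580 ± 806 joint CPM in epithelium and 2005 ± 585 in fibroblasts, a log2 difference of 0.36 (SE 0.07, limma adjusted p = 0.000212). The transcripts of genes with overlapping starts thus lay on opposite sides of the line between cell types, with smaller log2 differences than any other chain. Col4a5 was at 17.6 ± 6.17 joint CPM in epithelium and 11.9 ± 12.4 in fibroblasts (0.87, SE 0.16, limma adjusted p = 5.06e-05). Col4a6 was at 13.1 ± 4.52 joint CPM in epithelium and 9.11 ± 10.3 in fibroblasts (0.98, SE 0.18, limma adjusted p = 6.54e-05). For this pair the mean over stages covers a change of order, since both genes were higher in epithelium at E18.5 and lower in epithelium at P28.

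**Figure D1:**
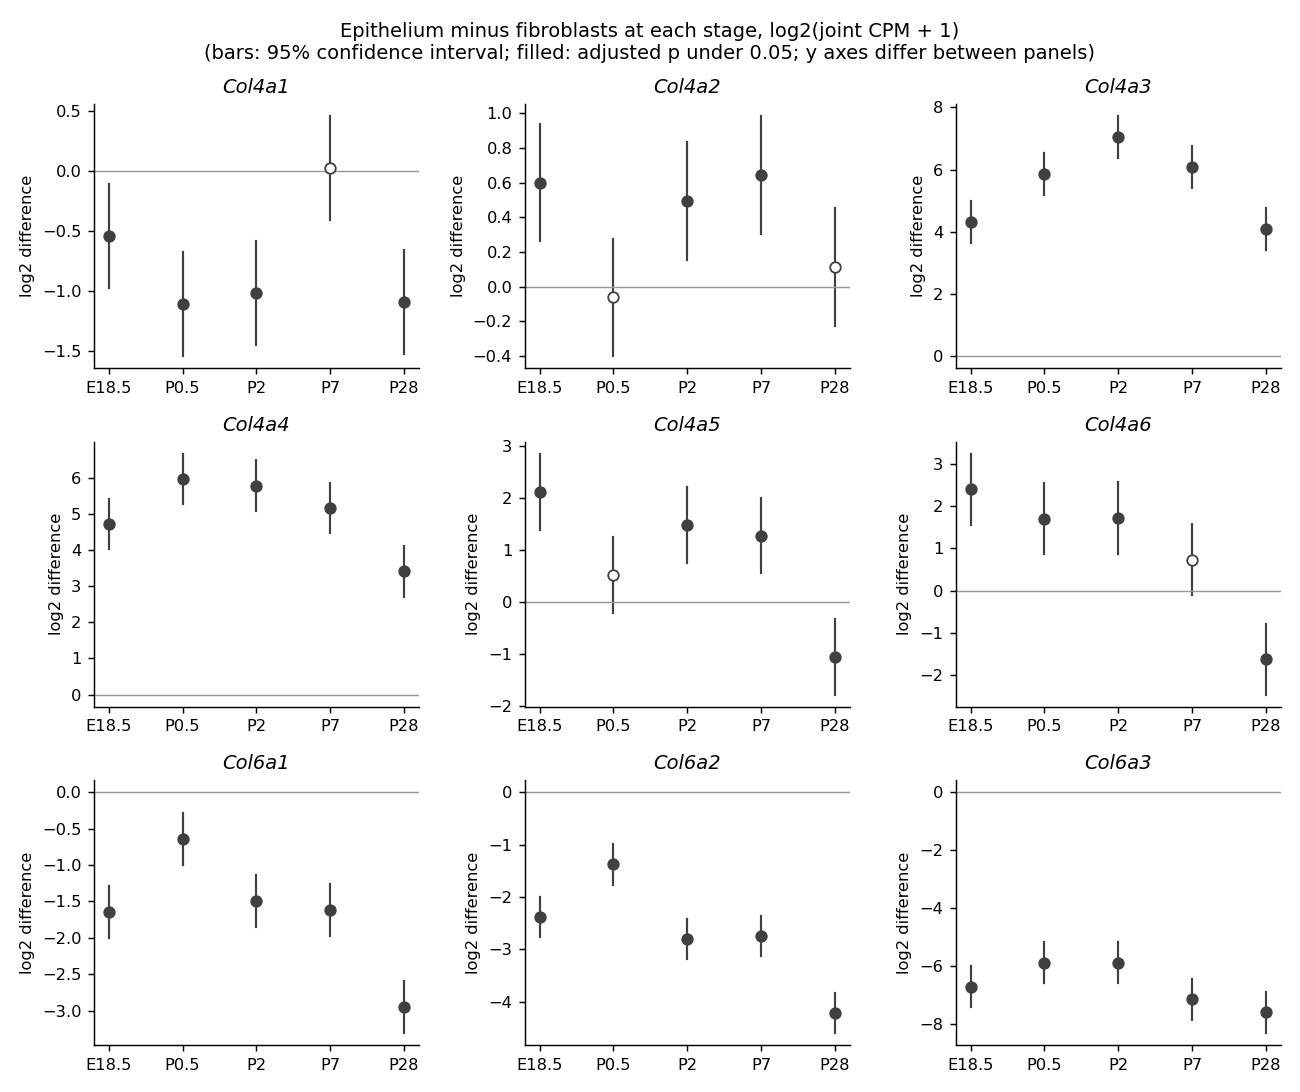
Epithelium minus fibroblast log2(joint CPM + 1) for each of the 9 chains at the 5 shared stages, drawn as points with 95% confidence intervals (2 libraries per cell type and stage, y axes differ between panels). Col4a3 and Col4a4 stay above the zero line and Col6a1, Col6a2 and Col6a3 below it, while Col4a5 and Col4a6 cross it between P7 and P28.

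Per library, Col4a3 had deposited values of 135 and 161 at E18.5, 185 and 165 at P0.5, 196 and 155 at P2, 211 and 163 at P7, and 98.9 and 128 at P28 in epithelium. Fibroblast values were 6.18 and 6.82, then 3.15 and 1.12, 0 and 0.548, 1.05 and 2.51, and 4.72 and 5.98 at the same stages, and 0.537 at P56. All epithelial libraries thus lay between 98.9 and 211, and the fibroblast values came from 0 to 22 reads per library. At P28 epithelial Col4a3 was not called against E18.5, with a log2 difference of -0.39 (95% interval -0.83 to 0.06, limma adjusted p = 0.199), nor against P7 (-0.72, SE 0.21, limma adjusted p = 0.0507).

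Col4a4 followed it at a lower level. Epithelial values were 69.1 and 66.9 at E18.5, 84.5 and 107 at P0.5, 70.7 and 80.1 at P2, 84.4 and 63.2 at P7, and 40.2 and 42.6 at P28. Fibroblast values lay between 0.274 and 3.25 with 1 to 11 reads in each library, too low to pass the filter of a value of 3 in 2 libraries. Every epithelial library of P28 was below every epithelial library of the other stages. The P28 mean of 41.4 ± 1.75 compared with 73.8 ± 15 at P7, a log2 change of -0.81 (SE 0.21, limma adjusted p = 0.03), and with 68.0 ± 1.54 at E18.5, a log2 change of -0.70 (SE 0.21, limma adjusted p = 0.0244). Both calls rested on single libraries. Against P7 the adjusted p reached 0.276 when P7 replicate 1, P28 replicate 1 or P28 replicate 2 was left out. Against E18.5 it reached 0.110 when any 1 of the 4 libraries was left out. Within the pair, Col4a4 supplied 24.9% to 39.5% of epithelial reads.

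At each stage the difference between cell types in Col4a3 and Col4a4 was called, but its size varied. For Col4a3 the log2 difference was 4.31 at E18.5, 5.87 at P0.5, 7.05 at P2, 6.08 at P7 and 4.09 at P28. For Col4a4 it was 4.71, 5.96, 5.78, 5.15 and 3.4 at the same stages. These sizes depend on fibroblast levels near the floor and on the added 1, so they are not read as a course.

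Col4a1 and Col4a2 made up most of the collagen IV reads in both cell types, and their courses in epithelium parted at P7. Epithelial Col4a1 was at 1458 and 1460.0 at E18.5, 1121 and 731 at P0.5, 715 and 825 at P2, 2223 and 1547 at P7, and 834 and 758 at P28. Epithelial Col4a2 was at 3994 and 4230.4 at E18.5, 2759.6 and 2643 at P0.5, 2872 and 2185 at P2, 2346 and 2418 at P7, and 1972 and 1697 at P28. Both P7 libraries were above all other epithelial libraries for Col4a1, whereas for Col4a2 both E18.5 libraries were highest and both P28 libraries lowest.

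Col4a1 was the 1 chain called between P2 and P7 in epithelium, and it rose, in a step where 3.71% of all genes were called. Its mean was 1885 ± 478 at P7 and 770 ± 77.6 at P2 (SD, n = 2 each), a log2 change of 1.27 (SE 0.22, limma adjusted p = 0.00555). Over the same step Col4a2 was at 2382 ± 50.3 at P7 and 2528 ± 486 at P2, a log2 change of -0.07 with a 95% interval of -0.46 to 0.32. At P28 Col4a1 was back at 796 ± 53.9, which was lower than P7 by a log2 change of -1.22 (SE 0.22, limma adjusted p = 0.00268). The call at P7 was lost without P2 replicate 1 or without P7 replicate 1, the higher of the P7 libraries, with an adjusted p of up to 0.0775. In P7 fibroblasts Col4a1 was at 1992 and 1619.7, and P7 was the 1 shared stage without a call between the cell types for this gene (log2 difference 0.03, 95% interval -0.41 to 0.46). The change of Col4a1 from P2 to P7 was not called as different between the cell types (1.04, SE 0.30, limma adjusted p = 0.0850), and none of the 9 chains was called in that test by limma, against 1.61% of all genes.

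Epithelial Col4a2 stepped down at birth. At P0.5 it was at 2701 ± 82.3, against 4112 ± 167 at E18.5, a log2 change of -0.61 (SE 0.18, limma adjusted p = 0.0387), 1 of 3 chains called in a step where 14.3% of all genes were. Without any 1 of these 4 libraries the call was lost, with an adjusted p of up to 0.166. Col4a1 moved by -0.69 over that step and missed the threshold (SE 0.22, limma adjusted p = 0.0509).

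Fibroblast Col4a1 was at 2317 and 1978 at E18.5, 2069 and 1847 at P0.5, 1577 and 1473 at P2, 1992 and 1619.7 at P7, 1915 and 1356 at P28, and 951 at P56. Fibroblast Col4a2 was at 2564 and 2906 at E18.5, 2821 and 2813 at P0.5, 1669 and 1815 at P2, 1500.1 and 1499 at P7, 1786 and 1448 at P28, and 804 at P56. The Col4a2 libraries of E18.5 and P0.5 lay above all later ones, and for Col4a1 the E18.5 and P0.5 libraries overlapped, as did those of P7 and P28, while both P2 libraries were below those of P0.5 and P7. At P2 Col4a2 was at 1742 ± 103, against 2817 ± 6.14 at P0.5, a log2 change of -0.69 (SE 0.17, limma adjusted p = 0.00967). It was 1 of 2 chains called at that step in fibroblasts, where 16.9% of all genes were called. The call was lost when either P0.5 library or P2 replicate 1 was left out, with an adjusted p of up to 0.104.

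**Figure D2:**
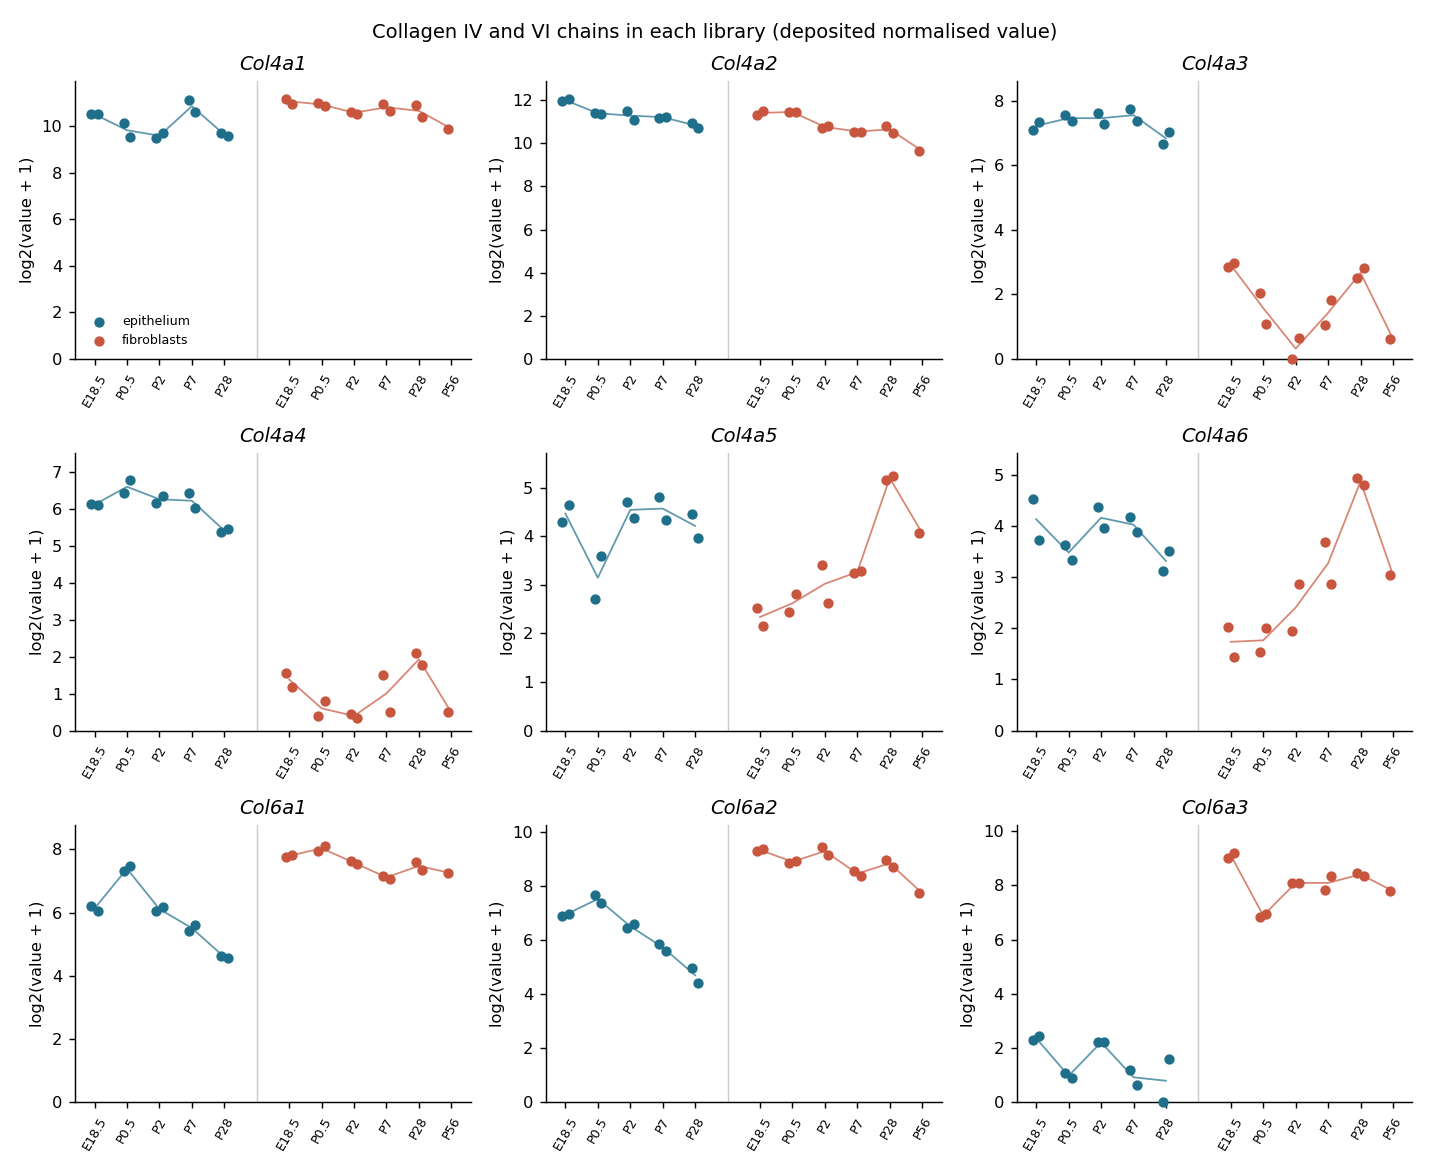
log2(deposited value + 1) of each chain in every library by stage, 1 panel per chain, with the epithelial points left of the fibroblast points and P56 in fibroblasts only (each cell type was normalised on its own). Among epithelial libraries, those of P7 stand highest for Col4a1 (2223 and 1547) and those of P0.5 for Col6a1 (158 and 175), and among fibroblast libraries those of P28 stand highest for Col4a5 (34.6 and 36.7).

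Col4a5 and Col4a6, the X-linked pair, showed the largest rises of the family, and these were in fibroblasts. Fibroblast Col4a5 was at 4.78 and 3.41 at E18.5, 4.41 and 5.99 at P0.5, 9.60 and 5.21 at P2, 8.4 and 8.77 at P7, 34.6 and 36.7 at P28, and 15.7 at P56. Fibroblast Col4a6 was at 3.09 and 1.71 at E18.5, 1.89 and 2.99 at P0.5, 2.84 and 6.31 at P2, 11.8 and 6.26 at P7, 29.8 and 26.7 at P28, and 7.25 at P56. For both genes the P28 libraries exceeded every other fibroblast library. At P28 the means were 35.6 ± 1.51 for Col4a5 and 28.3 ± 2.2 for Col4a6, against 4.09 ± 0.964 and 2.40 ± 0.978 at E18.5. These are 8.70-fold and 11.8-fold higher means at P28, with log2 changes of 2.86 (SE 0.37, limma adjusted p = 8.47e-06) and 3.14 (SE 0.45, limma adjusted p = 2.45e-05). Both calls held under every other setting and without any 1 library. Their sizes are less sure, because the E18.5 libraries held only 17 and 8 reads of Col4a5 and 11 and 4 of Col4a6. Over all settings the log2 change ran from 2.16 to 3.10 for Col4a5 and from 2.17 to 3.52 for Col4a6.

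Most of that rise fell between P7 and P28, where these were the only chains of 8 tested to be called, against 20.8% of all genes and 11.3% called higher. Col4a5 was at 35.6 ± 1.51 at P28 and 8.59 ± 0.259 at P7 (log2 change 1.93, SE 0.37, limma adjusted p = 0.000972), and Col4a6 at 28.3 ± 2.2 at P28 and 9.04 ± 3.93 at P7 (1.60, SE 0.45, limma adjusted p = 0.0159). The Col4a6 call was lost without P7 replicate 2, P28 replicate 1 or P28 replicate 2, and with no filter on low values, with an adjusted p of up to 0.141. Pericyte markers moved in the same libraries: the 8 markers summed to 108 to 122 at P28, against 29.4 to 32.2 at P7 and 26.4 to 41.0 at E18.5. That sum was mostly Abcc9, at 100 and 88.1 at P28 and 13.5 and 3.84 at E18.5. Among the other markers, Mcam, which encodes CD146, was at 0 and 2.39 at P28, and the sort took CD146-negative cells. Rgs5 stayed between 0 and 3.74 in fibroblasts. At P28, 5 to 7 of the 8 were detected in a library. The summed fibroblast markers were also highest at P28, at 22575 to 24230.3, against 6800 to 7875 at E18.5. The part of either in the rise of Col4a5 and Col4a6 was not tested.

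In epithelium the pair was not called between E18.5 and P28, but Col4a5 was called at both steps around P0.5. Col4a5 was at 18.5 and 24.0 at E18.5, 5.51 and 11 at P0.5, 25.1 and 19.8 at P2, 27.1 and 19.0 at P7, and 20.9 and 14.7 at P28. Col4a6 was at 22.1 and 12.3 at E18.5, 11.4 and 9.05 at P0.5, 19.6 and 14.5 at P2, 17.0 and 13.7 at P7, and 7.72 and 10.4 at P28. Both P0.5 libraries were the lowest of all 10 for Col4a5. The mean of Col4a5 was 8.27 ± 3.90 at P0.5, against 21.2 ± 3.89 at E18.5 (log2 change -1.32, SE 0.34, limma adjusted p = 0.0199). At P2 it was 22.4 ± 3.75, a log2 change of 1.40 from P0.5 (SE 0.34, limma adjusted p = 0.0241). The first of these calls was lost without E18.5 replicate 2 or P0.5 replicate 1, with an adjusted p of up to 0.204. The second was lost without P0.5 replicate 1 or P2 replicate 1, and with no filter, with an adjusted p of up to 0.211. At P28 against E18.5, neither Col4a5 (-0.25, 95% interval -0.99 to 0.48) nor Col4a6 (-0.81, limma adjusted p = 0.0981) was called in epithelium.

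The order of the cell types therefore turned round for this pair. At E18.5 the log2 difference between epithelium and fibroblasts was 2.13 for Col4a5 (SE 0.35, limma adjusted p = 3.99e-05) and 2.39 for Col4a6 (SE 0.40, limma adjusted p = 5.42e-05). At P28 Col4a5 was at 16.5 ± 3.53 joint CPM in epithelium and 35.0 ± 1.67 in fibroblasts (-1.05, SE 0.35, limma adjusted p = 0.0212). Col4a6 was at 8.49 ± 2.03 joint CPM in epithelium and 27.8 ± 2.01 in fibroblasts at P28 (-1.62, SE 0.40, limma adjusted p = 0.00279). The P28 fibroblast group was the highest of all 10 groups of cell type and stage for both genes, and the E18.5 fibroblast group the lowest. The Col4a5 difference at P28 was lost without epithelial P28 replicate 2, fibroblast P28 replicate 1 or fibroblast P28 replicate 2, with an adjusted p of up to 0.172. Xist, the X-linked transcript made from the inactive X chromosome of females, was at 12.7 in epithelial P28 replicate 1 and 12.4 in fibroblast P28 replicate 1. In every other library it was at 122 to 414 in epithelium and 411 to 1716 in fibroblasts. The part of this difference in the values of the X-linked pair was not tested.

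Among the collagen VI chains, Col6a1 and Col6a2 had their highest epithelial values at P0.5 and their lowest at P28. Epithelial Col6a1 was at 73.6 and 65.0 at E18.5, 158 and 175 at P0.5, 65.2 and 71.2 at P2, 41.8 and 47.6 at P7, and 23.6 and 22.8 at P28. Epithelial Col6a2 was at 118 and 125 at E18.5, 200.5 and 167 at P0.5, 85.7 and 95.2 at P2, 57.0 and 47.8 at P7, and 30.5 and 20.5 at P28. For both genes the P0.5 libraries were above, and the P28 libraries below, all other epithelial libraries.

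Col6a1 rose at birth to 167 ± 11.7 at P0.5, against 69.3 ± 6.09 at E18.5 (log2 change 1.25, SE 0.19, limma adjusted p = 0.00109). Col6a2 was at 184 ± 24.0 at P0.5 and 122 ± 5.11 at E18.5, which missed the threshold (0.58, SE 0.22, limma adjusted p = 0.0888). Both fell by P2, when Col6a1 was at 68.2 ± 4.24 (-1.28, SE 0.19, limma adjusted p = 0.00241) and Col6a2 at 90.5 ± 6.75 (-1.01, SE 0.22, limma adjusted p = 0.0138). They made up 2 of the 3 chains called at that step in epithelium, where 8.82% of all genes were called. The Col6a2 call from P0.5 to P2 was lost when either P0.5 library or P2 replicate 1 was left out, with an adjusted p of up to 0.125.

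From P7 to P28 both fell again in epithelium, among 4 chains called, all lower, against 7.28% of all genes called and 2.41% called lower. Col6a1 was at 23.2 ± 0.566 at P28 and 44.7 ± 4.05 at P7 (-0.92, SE 0.19, limma adjusted p = 0.00832). Col6a2 was at 25.5 ± 7.11 at P28 and 52.4 ± 6.45 at P7 (-1.03, SE 0.22, limma adjusted p = 0.00840). These calls also depended on single libraries: the Col6a1 call was lost without P7 replicate 2 or P28 replicate 2, with an adjusted p of up to 0.0793. The Col6a2 call was lost without P7 replicate 1 or P28 replicate 2, with an adjusted p of up to 0.126. With P28 replicate 2 left out, 1 of the 4 chains was still called, and with P7 replicate 1 left out, 2 were. The lower levels at P28 than at E18.5 were called under every setting and without any 1 library. Col6a1 was 2.99-fold lower at P28 than at E18.5 (-1.54, SE 0.19, limma adjusted p = 6.29e-05), and Col6a2 4.78-fold lower (-2.24, SE 0.22, limma adjusted p = 6.99e-06).

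Fibroblast Col6a1 was at 216 and 225 at E18.5, 248 and 275 at P0.5, 197 and 184 at P2, 142 and 134 at P7, 192 and 164 at P28, and 150.5 at P56. Fibroblast Col6a2 was at 624 and 665 at E18.5, 466 and 487 at P0.5, 693 and 563 at P2, 376 and 328 at P7, 499 and 419.9 at P28, and 212 at P56. The P7 libraries were the lowest of the 5 shared stages for both genes. Col6a1 was called in no fibroblast step. Col6a2 was the 1 chain called between P2 and P7 in fibroblasts, where 6.64% of all genes were called, at 352 ± 34 at P7 and 628 ± 92.0 at P2 (-0.83, SE 0.18, limma adjusted p = 0.00685). That call was lost without P2 replicate 1 or P7 replicate 2, with an adjusted p of up to 0.149.

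Several marker lists also differed between stages in epithelium; pairs of sums are given with the lower library first. The 7 fibroblast markers summed, in epithelial libraries, to 84.6 and 103 at E18.5, 52.3 and 54.7 at P0.5, 85.0 and 256 at P2, 32.1 and 40.8 at P7, and 26.3 and 33.4 at P28. The 6 mesothelial markers summed to 7403 and 7714 at E18.5, 3897 and 4029 at P0.5, 2028 and 2273 at P2, 920 and 965 at P7, and 857 and 989 at P28. Most of that sum was Krt19, which epithelial cells also express, and Msln was at 1.16 and 3.46 at P28 and 428 and 444 at E18.5, and Wt1 was at 0 in all but 1 epithelial library. The 12 alveolar type 1 markers summed to 4966 to 5909 at P28 and 9962 to 10968 at E18.5 in epithelium, and the 9 alveolar type 2 markers to 29081 to 31081.5 at P28 and 8706 to 9178 at E18.5. Of the 7 leukocyte markers 6 were listed, all but Cd52, and they summed to 1108 to 1293 in P28 epithelium, against 80.4 to 218 at E18.5. The part of these shifts in the falls of the epithelial chains was not tested.

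Col6a3, the chain with the longest helix-flanking extensions, was close to a fibroblast transcript in these libraries. Epithelial values were 3.89 and 4.42 at E18.5, 1.10 and 0.848 at P0.5, 3.65 and 3.63 at P2, 1.31 and 0.560 at P7, and 0 and 2.02 at P28, from 0 to 14 reads in a library. Fibroblast values were 519 and 588 at E18.5, 114 and 121 at P0.5, 271 and 274 at P2, 229 and 324 at P7, 351 and 327 at P28, and 221 at P56. The fibroblast P0.5 libraries were far below all others. At P0.5 the mean was 118 ± 5.21, against 553.5 ± 49.0 at E18.5 (log2 change -2.22, SE 0.19, limma adjusted p = 1.91e-07), the 1 chain called at birth in fibroblasts, where 15.4% of all genes were. By P2 it was at 272 ± 2.25, higher than P0.5 by a log2 change of 1.2 (SE 0.19, limma adjusted p = 0.000221). Col6a1 and Col6a2, the partners of Col6a3 in the collagen VI molecule, were not called at either step in fibroblasts. The drop coincided with the lowest summed fibroblast markers, 4366 to 4506 at P0.5 against 6800 to 7875 at E18.5, and the part of this shift in the drop was not tested.

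Over the whole course from E18.5 to P28, 6 of the 9 chains were lower in epithelium, against 24.9% of all genes called and 11.3% called lower. They were Col4a1, Col4a2, Col4a4, Col6a1, Col6a2 and Col6a3, and the median log2 change of the 9 chains was -0.88, beside 0.03 over all genes. Col4a1 was at 796 ± 53.9 at P28 and 1459 ± 1.63 at E18.5 (-0.88, SE 0.22, limma adjusted p = 0.00939), and Col4a2 at 1834 ± 194 at P28 and 4112 ± 167 at E18.5 (-1.17, SE 0.18, limma adjusted p = 0.000327). The Col4a1 call was lost without P28 replicate 2, with an adjusted p of 0.0600. The Col6a3 call rested on few reads (-1.57, SE 0.54, limma adjusted p = 0.0460). It was lost with the count tests, with no filter, and without E18.5 replicate 1, E18.5 replicate 2 or P28 replicate 1, with an adjusted p of up to 0.425.

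In fibroblasts, 5 of the 8 chains tested were called at P28 against E18.5, where 33.6% of all genes were (18.7% higher and 14.9% lower), with 2 chains higher and 3 lower. Col4a5 and Col4a6 were the higher ones. Col4a2 was at 1617 ± 239 at P28 and 2735 ± 242 at E18.5 (-0.76, SE 0.17, limma adjusted p = 0.00213), Col6a2 at 459 ± 55.7 at P28 and 644 ± 28.5 at E18.5 (-0.49, SE 0.18, limma adjusted p = 0.0382), and Col6a3 at 339 ± 16.9 at P28 and 553.5 ± 49.0 at E18.5 (-0.71, SE 0.19, limma adjusted p = 0.00678). The median change of the 8 was -0.36, beside 0.01 over all genes. The Col6a2 call was lost without E18.5 replicate 1, E18.5 replicate 2 or P28 replicate 2, and with no filter, with an adjusted p of up to 0.202. The Col6a3 call was lost without E18.5 replicate 2, with an adjusted p of 0.0645. With E18.5 replicate 2 left out, 3 chains were called. Stage comparisons within a cell type share libraries, so they are not independent of each other.

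**Figure D3:**
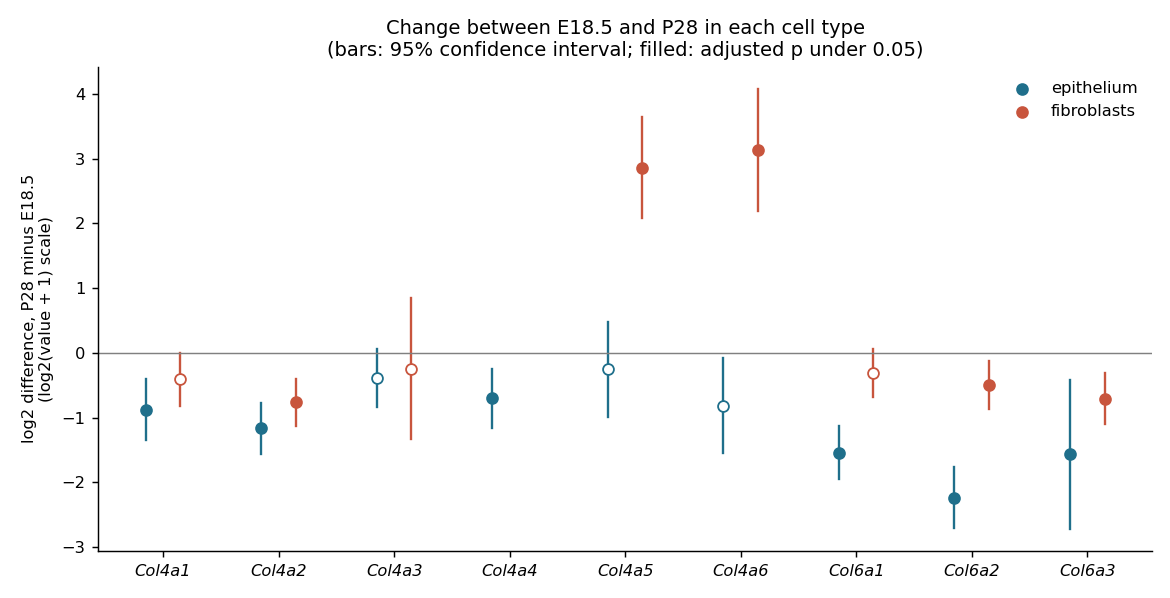
log2 change at P28 relative to E18.5 for each chain, with 95% confidence intervals, in epithelium and in fibroblasts (2 libraries per group; filled points passed an adjusted p of 0.05; fibroblast Col4a4 was not tested). Fibroblast Col4a5 (2.86) and Col4a6 (3.14) stand far above zero, and epithelial Col6a2 (-2.24) stands farthest below it.

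The course from E18.5 to P28 differed between the cell types for 4 chains, all with a lower change in epithelium than in fibroblasts, against 15.1% of all genes called and 9.85% called in that direction. The difference of log2 changes was -4.01 for Col4a6 (SE 0.57, limma adjusted p = 5.30e-05), -3.18 for Col4a5 (SE 0.49, limma adjusted p = 0.000137), -1.83 for Col6a2 (SE 0.26, limma adjusted p = 5.62e-05) and -1.30 for Col6a1 (SE 0.24, limma adjusted p = 0.000759). All 4 were called under every other setting and without any 1 library. Scaling by library size alone, in place of TMM factors, moved the median of all genes in this comparison by 0.18. Col4a1 and Col4a2, which were lower at P28 in epithelium, were not called as changing differently from fibroblasts (-0.55, adjusted p = 0.243, and -0.49, adjusted p = 0.176, by limma).

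By step, the cell types differed first at birth, when Col6a1 and Col6a2 changed more upward in epithelium than in fibroblasts by 1.0 each, 2 chains against 3.53% of all genes and 1.55% in that direction. At P2 against P0.5 the same 2 chains differed the other way, by -0.85 for Col6a1 and -1.42 for Col6a2, against 5.24% of all genes and 2.58% in that direction. The step from P7 to P28 held most differences: 7 chains changed more downward in epithelium than in fibroblasts, against 8.59% of all genes and 5.48% in that direction. The exceptions were Col4a2 and Col6a3. Fibroblast Col4a3 had 10 reads at P7 and 31 at P28 over both libraries, and fibroblast Col4a4 had 8 and 17. The differences of these 2 chains thus depend on fibroblast levels near the floor and on the added 1. Col4a4 did not pass the filter among fibroblast libraries alone. Only Col6a2 at P2, and Col4a5, Col6a1 and Col6a2 at P28, held without every single library in turn. The Col6a2 difference at P0.5 and the Col6a1 difference at P2 were lost without any 1 of their 8 libraries (adjusted p up to 0.159 and 0.157). The Col6a1 difference at P0.5 was lost without any of these but E18.5 replicate 1 of either cell type (adjusted p up to 0.109). At the last step, the differences of Col4a1, Col4a3, Col4a4 and Col4a6 were all lost without epithelial P7 replicate 1 or epithelial P28 replicate 1, which left 3 chains called. Those of Col4a1 and Col4a4 were also lost without epithelial P28 replicate 2, fibroblast P7 replicate 2 or fibroblast P28 replicate 1, that of Col4a6 without fibroblast P7 replicate 2, and that of Col4a3 without fibroblast P7 replicate 1. Without fibroblast P7 replicate 2, 4 chains were called. The adjusted p reached 0.127 for Col4a1, 0.0533 for Col4a3, 0.120 for Col4a4, which edgeR and DESeq2 did not call, and 0.0704 for Col4a6.

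At P56, read from the 1 fibroblast library that stood apart, most chains were lower than at P28. The test takes that library to vary like the other fibroblast groups. Of 8 chains tested, 6 were called, all lower, against 31.2% of all genes called and 19.1% called lower. The log2 changes were -0.76 for Col4a1, -1.0 for Col4a2, -2.04 for Col4a3, -1.83 for Col4a6, -1.10 for Col6a2 and -0.61 for Col6a3. That of Col4a3 rests on 4 reads at P56, against 16 and 15 at P28, so its size depends on levels near the floor and on the added 1. Col4a5 and Col6a1 were not called (-1.13, adjusted p = 0.0678, and -0.23, adjusted p = 0.449, by limma). The median of all genes was -0.12 in this comparison and moved by 0.19 with TMM scaling. Under that scaling Col4a1 and Col6a3 were no longer called, and with no filter only 2 chains were. Without P28 replicate 1, 3 chains were called: the calls of Col4a1, Col4a6 and Col6a3 were lost, with adjusted p values of up to 0.134, 0.0710 and 0.202 over all settings. Without P28 replicate 2 the calls of Col4a3 and Col6a3 were lost, and that of Col4a3 had an adjusted p of up to 0.0755. The Col4a5 and Col4a6 values at P56, 15.7 and 7.25, still lay above all fibroblast values at E18.5 and P0.5.

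The make-up of the collagen reads needs no scaling factor. Each transcript gives 1 tag, so these are shares of transcripts' reads and not of protein, and the chains' own tag efficiencies are not known. Collagen VI made up 1.68% to 8.54% of the reads of the 9 chains in epithelium, highest at P0.5 (7.95% and 8.54%), and 14.5% to 26.3% in fibroblasts. In epithelium, Col4a3 with Col4a4 made up 4.68% to 7.43% of collagen IV reads from P0.5 on and 3.59% and 3.83% at E18.5, against 0.0109% to 0.291% in fibroblasts over all stages. Col4a5 with Col4a6 made up 0.405% to 1.15% of collagen IV reads in epithelium. In fibroblasts their share was 0.161% and 0.105% at E18.5, 0.128% and 0.192% at P0.5, 0.382% and 0.349% at P2, 0.575% and 0.479% at P7, 1.71% and 2.2% at P28, and 1.29% at P56 (95% Wilson interval 1.11% to 1.5%). The P28 fibroblast libraries thus gave this pair a larger share than any epithelial library did.

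Within the major pair, Col4a2 supplied 51.3% and 61.0% of Col4a1 and Col4a2 reads in P7 epithelium and 69.1% to 80.1% at the other stages. In fibroblasts it supplied 43.0% to 60.4%. The medians were 71.8% in epithelium and 52.1% in fibroblasts. Within collagen VI, Col6a3 supplied 38.2% and 39.8% of fibroblast reads at E18.5, 13.8% and 13.7% at P0.5, 23.3% and 26.8% at P2, 30.7% and 41.2% at P7, 33.7% and 35.9% at P28, and 37.9% at P56 (95% Wilson interval 36.4% to 39.3%). In epithelium it supplied 0% to 4.46%. Col6a2 supplied 47.3% to 65.8% of Col6a1 and Col6a2 reads in epithelium and 63.9% to 77.9% in fibroblasts of the shared stages, and 58.5% in the P56 fibroblast library (95% Wilson interval 56.6% to 60.4%). Whether counting used the strand is not stated in the labels, so reads of the opposite-strand genes Gm15418, which overlaps the 3' end of Col4a1, and C430014B12Rik, which overlaps that of Col4a3, cannot be told apart from theirs. Gm15418 was itself listed at no more than 1.65.

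**Figure D4:**
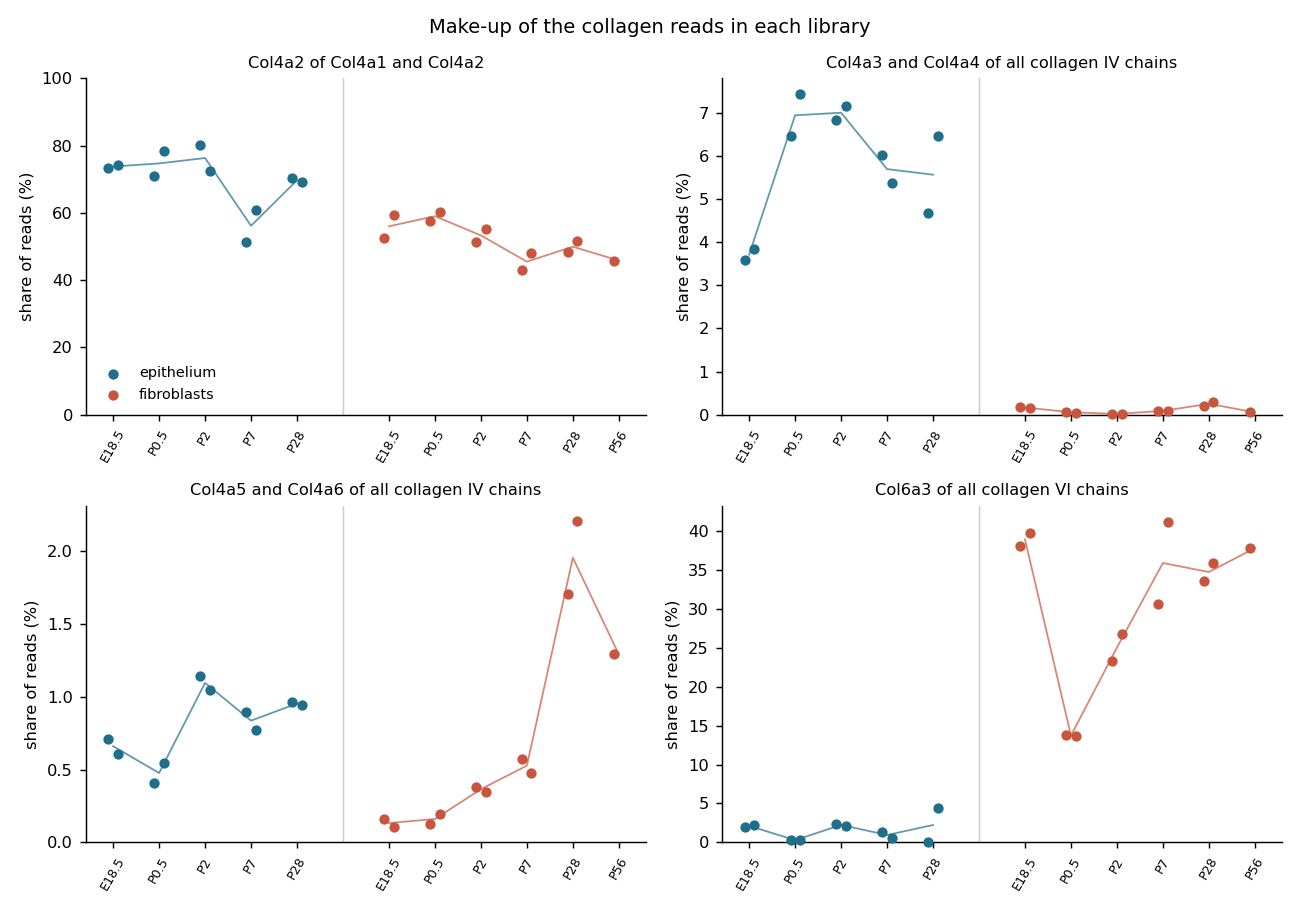
Shares of reads by library and stage, in percent, with epithelial points left of fibroblast points: Col4a2 of Col4a1 and Col4a2, Col4a3 with Col4a4 of collagen IV, Col4a5 with Col4a6 of collagen IV, and Col6a3 of collagen VI. The Col4a2 share in epithelium is lowest at P7 (51.3% and 61.0%), and the Col6a3 share in fibroblasts is lowest at P0.5 (13.8% and 13.7%).

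The partner gene was rarely the gene of most similar course. Likeness was the root mean square difference between log2(value + 1) profiles centred on their own means over 10 libraries of a cell type, so a smaller value is more alike. It was ranked among 5616 genes in epithelium and 5646 in fibroblasts that reached a stage mean of 20. In epithelium, Col6a1 and Col6a2 were each other's nearest gene, at 0.316, ahead of Serpinb6b (0.339) and Scnn1b (0.341) for Col6a1 and of Wdr45 (0.350) for Col6a2. In contrast, Col4a2 ranked 774 by likeness to epithelial Col4a1, whose nearest genes were Trf, Ext2 and Ppp1r3c at 0.248 to 0.294. The nearest genes to epithelial Col4a2 were Farp1 (0.0954), Spint1 (0.0967) and Glb1 (0.125). Those nearest to Col4a3 were Arhgap28, Acads and Senp6 at 0.107 to 0.149, with Col4a4 at rank 222. Those nearest to Col4a4 were LOC102643141, Trp53bp2 and Tmsb10 at 0.131 to 0.159, with Col4a3 at rank 71. In fibroblasts, C1ra (0.294), Gm4788 (0.308) and C1rb (0.321) were nearest to Col4a5. LOC105242786 (0.265), Sema3c (0.373) and Aebp1 (0.398) were nearest to Col4a6. Col4a6 ranked 95 for Col4a5, and Col4a5 ranked 21 for Col4a6. Slc26a6 (0.156), Pcid2 (0.252) and Arhgef11 (0.293) were nearest to fibroblast Col6a3, and Mia3 (0.158) was nearest to fibroblast Col6a1. Col6a2 ranked 211 for fibroblast Col6a1, at 0.288, and Col6a1 ranked 218 for Col6a2. Ranks also depend on how much a gene varied. Epithelial Col4a3 and Col4a4 (0.269) and fibroblast Col4a1 and Col4a2 (0.306) were closer in value than epithelial Col6a1 and Col6a2. The latter varied more, with an SD of 0.914 and 0.994, against 0.302 for epithelial Col4a3 and 0.410 for Col4a4.

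Other genes of basement membranes and of collagen handling were taken from 6 lists. Their counts of called genes are read against the share of all genes called, which was 24.9% at P28 against E18.5 in epithelium, 33.6% in fibroblasts and 62.4% between cell types over the shared stages. The list of basement membrane partners was lower in P28 epithelium than at E18.5 in 8 of 13 genes tested and higher in 2, with a median log2 change of -1.43 beside 0.03 over all genes. Col18a1, a basement membrane collagen that yields endostatin, was at 13.6 ± 6.07 at P28 and 143 ± 35.0 at E18.5 (-3.35). Tinagl1, which binds collagen IV, was at 27.7 ± 0.107 at P28 and 111 ± 8.49 at E18.5 (-1.96). Pxdn, the peroxidase that crosslinks collagen IV, was at 4.77 ± 0.186 at P28 and 38.4 ± 0.743 at E18.5 (-2.77). Fras1, a basement membrane linker, was at 0.867 ± 0.412 at P28 and 15.7 ± 2.57 at E18.5 (-3.17). All of these exceeded the changes of Col4a1 and Col4a2 in size. They were picked from the list by smallest p in this same comparison, so that excess is not read as a result.

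In fibroblasts the same list moved both ways, with 5 of 14 genes higher and 6 lower at P28 and a median of -0.08 beside 0.01 over all genes. Npnt, an integrin ligand of basement membranes, was at 3246 ± 76.2 at P28 and 651 ± 64.5 at E18.5 (2.32). Col15a1, a collagen that binds basement membranes to the stroma, was at 83.1 ± 8.64 at P28 and 1.26 ± 1.79 at E18.5 (5.48). Frem1, at 37.1 ± 10.7 at P28 and 292 ± 64.6 at E18.5, and Nid2, at 8.25 ± 5.82 at P28 and 88.9 ± 3.33 at E18.5, were lower. Averaged over stages, 6 of 16 were higher in epithelium and 8 lower (median -0.74 beside 0.01). Egfl6 was at 234 ± 111 joint CPM in epithelium and 0.478 ± 0.648 in fibroblasts. Nid1, which links collagen IV to laminin, was at 0.877 ± 1.15 joint CPM in epithelium and 136 ± 45.0 in fibroblasts.

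Few genes for folding and modifying collagens were called over time, and most were called between cell types, as the shares over all genes also differ. At P28 against E18.5, 0 of 15 genes were higher and 2 lower in epithelium (median -0.18), namely Fkbp10 (-1.99) and Sec31a (-0.72). In fibroblasts 1 of 14 was higher, Plod3 (0.87), and 1 lower, Crtap (-0.84), with a median of -0.08. Averaged over stages, 3 of 16 were higher and 11 lower in epithelium than in fibroblasts (median -0.83). P4ha1, a catalytic subunit of prolyl 4-hydroxylase, was at 785 ± 135 joint CPM in epithelium and 235 ± 70.8 in fibroblasts (1.78). Serpinh1, the collagen chaperone Hsp47, was at 38.0 ± 10.1 joint CPM in epithelium and 134 ± 29.0 in fibroblasts (-1.81). Fkbp10 and Crtap were lower in epithelium as well (-3.08 and -2.21).

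Of the genes listed as receptors for these collagens, Antxr2 and Cd44 were higher at P28 in both cell types. Other members of the list were called in either direction. In epithelium 3 of 7 were higher and 2 lower at P28 than at E18.5 (median 1.36). Antxr1, a collagen-binding anthrax toxin receptor, was at 100.3 ± 17.9 at P28 and 9.79 ± 3.13 at E18.5 (3.25). Its relative Antxr2, a receptor for collagen VI, was at 84.1 ± 19.6 at P28 and 12.6 ± 0.923 at E18.5 (2.62). The collagen receptor kinase gene Ddr1 was at 10.5 ± 2.15 at P28 and 32.6 ± 0.274 at E18.5 (-1.57). Epithelial libraries at P28 also carried the leukocyte markers given above, and Cd44 was higher there too (3.63), and the part of leukocytes was not tested. In fibroblasts 4 of 9 were higher and 2 lower (median 0.10). Antxr2 was at 322 ± 66.1 at P28 and 83.1 ± 0.481 at E18.5 (1.92), and Ddr2 at 260.0 ± 20.3 at P28 and 81.4 ± 17.0 at E18.5 (1.68). Cd44 was higher (2.19). Itga1, a subunit of the collagen-binding integrin that favours collagen IV, was at 13.4 ± 1.98 at P28 and 89.0 ± 14.3 at E18.5 (-2.65). Averaged over stages, 2 of 9 were higher and 7 lower in epithelium (median -1.66), with Itga3 at 167 ± 48.1 joint CPM in epithelium and 5.11 ± 3.30 in fibroblasts, and Ddr2 at 1.16 ± 1.44 in epithelium and 128 ± 72.3 in fibroblasts.

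Genes whose proteins bind collagen VI were fibroblast transcripts. All 8 were lower in epithelium over the shared stages, with a median of -5.53. Over time in fibroblasts 3 were higher and 4 lower (median -0.44). Dcn, the proteoglycan decorin, was at 9362 ± 2929 at P28 and 376 ± 8.75 at E18.5 (4.6), and Bgn, the proteoglycan biglycan, at 2486 ± 245 at P28 and 866 ± 33.6 at E18.5 (1.52). Fn1, fibronectin, was at 334 ± 66.1 at P28 and 1719 ± 123 at E18.5 (-2.37). Over that span fibroblast Col6a1 was not called, and Col6a2 and Col6a3 were lower, as given above. In epithelium 2 of 4 tested were lower, Mfap4 (-3.26) and Fn1 (-2.02), with a median of -1.30.

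Genes for cutting collagen IV and for the inhibitors were higher in P28 fibroblasts in 6 of 8 tested and lower in 1, with a median of 1.83. Timp2 was at 945 ± 52.7 at P28 and 90.8 ± 12.6 at E18.5 (3.37), Timp3 at 338 ± 95.8 at P28 and 83.5 ± 5.62 at E18.5 (1.98), and the gelatinase Mmp2 at 123 ± 31.2 at P28 and 37.1 ± 0.0207 at E18.5 (1.68). In epithelium 2 of 5 were higher and 2 lower (median 0.29). Mmp14, the membrane protease that activates Mmp2, was at 55.0 ± 4.09 at P28 and 755 ± 19.1 at E18.5 (-3.76). Over the shared stages 1 of 8 was higher and 7 lower in epithelium (median -1.54). Of the other network-forming or membrane collagens, Col13a1 was lower at P28 in both cell types. It was at 2.17 ± 0.213 at P28 and 24.6 ± 2.24 at E18.5 in epithelium (-3.01), and at 896 ± 34.4 at P28 and 2476 ± 169 at E18.5 in fibroblasts (-1.46). In that list 1 of 3 was higher and 1 lower in epithelium (median -0.23), 0 of 4 higher and 2 lower in fibroblasts (median -0.47), and 1 of 4 higher and 3 lower in epithelium than in fibroblasts (median -3.0).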

How the data were processed

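Gene values came from 21 3'SAGE-seq libraries, 1 table each. Each deposited value is a signal: the gene's tag count, which the authors divided by a factor common to the library. The mouse build mm10, Bowtie2 2.2.5 and R 3.4.0 are named per the submitters' processing notes; how the factor was set is not given in the sources consulted. All values above 0 were whole multiples of 1 constant per library (100% within 0.01 of a read), which gave the reads back: 2282124 to 5602529 per epithelial library and 2146071 to 5729829 per fibroblast library. Replicates differed by more than sampling noise in all 10 pairs.

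Stages were compared on the deposited values and cell types on joint CPM, with TMM factors from edgeR (4.0.16) over the 20004 genes listed for both. Tests were two-sided, from limma 3.58.1 in R 4.3.3 fitted to log2(value + 1) with its trend option, on genes at 3 or more in at least 2 libraries: 12143 genes in epithelium, 11954 in fibroblasts and 13386 jointly. The added 1 understates changes of low genes. Adjusted p-values are Benjamini-Hochberg over all genes tested, with a threshold of 0.05; the fit was checked on simulated counts. Alternatives were edgeR's quasi-likelihood test and DESeq2 (1.42.0) on the recovered reads, other scaling factors, a pseudocount of 5, no filter, a replicate block and leaving out each library. Fits without the P56 library, tests of each step between cell types and tests at P0.5, P2 and P7 were added after seeing the data.

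The rule named all 9 chains, of which those called in a comparison or described by stage are given with values, up to 4 genes of each list by smallest p, and the 3 genes of most similar course for chains at a stage mean of 20 or more. Of these, 1 gene is not reported here. The members, the lists and the tests were chosen with earlier results of these data known.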

Additional observations from a re-analysis of the deposited data

Results flagged for a closer look

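The change over time differed between epithelium and fibroblasts in 15 tests of a chain and a step, each by an interaction term in limma with adjustment over 13386 genes; a negative value means a lower change in epithelium. From E18.5 to P28 the differences of log2 changes were -3.18 for Col4a5, -4.01 for Col4a6, -1.30 for Col6a1 and -1.83 for Col6a2. At P0.5 against E18.5 they were 1.0 for Col6a1 (adjusted p = 0.0251) and 1.0 for Col6a2 (adjusted p = 0.0360). At P2 against P0.5 they were -0.85 for Col6a1 (adjusted p = 0.0460) and -1.42 for Col6a2 (adjusted p = 0.00292). At P28 against P7 they were -1.12 for Col4a1, -1.99 for Col4a3, -1.75 for Col4a4, -2.34 for Col4a5, -2.35 for Col4a6, -1.33 for Col6a1 and -1.46 for Col6a2, with adjusted p values of 0.000922 to 0.0229. Those of Col4a3 and Col4a4 depend on fibroblast levels near the floor. Groups of 2 libraries were too small to look for single libraries far from the rest.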

How the results depend on the processing

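The tests made 98 calls of a chain. No call changed direction in 599 values under other settings or in 584 values without 1 library. Other settings ended 12 of the calls at least once and leaving out a library ended 33, while 65 held throughout. Counts of called chains moved by more than 1.5 times as follows, and the cause was not tested. In epithelium at P7 against P2, edgeR and DESeq2 called 2 chains in place of 1. In fibroblasts at P0.5 against E18.5, a pseudocount of 5 gave 2 in place of 1. With no filter, fibroblasts had 1 in place of 2 at P28 against P7 and 2 in place of 6 at P56 against P28. In the difference between cell types at P2 against P0.5, edgeR, library-size scaling and the replicate block gave 1 in place of 2, and at P7 against P2, DESeq2 and the block gave 1 in place of 0.

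Without 1 library, the epithelial counts were 1 to 2 at P0.5 against E18.5, 1 to 3 at P2 against P0.5, 0 to 1 at P7 against P2 and 1 to 3 at P28 against P7. Fibroblast counts were 1 to 2 at P2 against P0.5, 0 to 1 at P7 against P2, 1 to 2 at P28 against P7, 3 to 6 at P28 against E18.5 and 3 to 4 at P56 against P28. Differences between cell types were 0 to 1 at P0.5 against E18.5, 1 at P2 against P0.5 and 3 to 7 at P28 against P7. Within a cell type, same-numbered libraries of different stages did not vary together. Their deviations correlated at -0.062 to 0.074 in epithelium and -0.038 to 0.040 in fibroblasts, in 10 pairs of stages each. Pairing of epithelial and fibroblast libraries of the same stage and number was not tested, and Xist was low in P28 replicate 1 of both. The tests between cell types treat all libraries as independent. With the replicate number as a block, the count was 4 in epithelium at P0.5 against E18.5, 5 at P28 against E18.5 and 5 in fibroblasts at P56 against P28. With 2 libraries per group, and epithelial Col6a3 and fibroblast Col4a3 and Col4a4 near the floor of 3 reads, depth limits those chains most. Fibroblast Col4a6 was also near it at E18.5, with 11 and 4 reads.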
